A study of Mus musculus with 18 samples.

Results

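The immediate early and dissociation response genes were 39 of the 55536 genes counted in striatal microglia of Q175 and WT mice with and without Tyrobp. They were chosen by symbol, as the AP-1 family, the EGR and KLF zinc fingers, the NR4A nuclear receptors and other rapidly induced regulators that also rise when tissue is taken apart into cells. The rule used no measured value. Q175 mice are heterozygotes that carry an expanded CAG repeat in the mouse huntingtin gene and serve as a model of Huntington's disease. Tyrobp-KO mice lack Tyrobp in every cell, which encodes the adaptor protein DAP12 of microglial receptors. All mice were adult, of the strain C57BL/6 by the labels and C57Bl6/J by the methods. The samples were 5 WT, 3 Tyrobp-KO, 5 Q175 and 5 Q175;Tyrobp-KO. There was 1 female among the WT samples, and there were 2 in Tyrobp-KO, 4 in Q175 and 2 in Q175;Tyrobp-KO. The methods describe perfused brains, mechanical dissociation of the striatum in cold Hibernate-A medium with no enzyme named, and capture with magnetic beads that bind CD11b, an integrin subunit found on myeloid cells such as microglia. The labels do not state that each sample is a different mouse, so p-values measure the spread between these samples.

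Immediate early genes are transcribed within minutes of a stimulus and need no new protein synthesis. Kinase cascades and calcium signals act on factors already bound at their promoters, such as SRF with its ternary complex partners and CREB, and the products (FOS, JUN, EGR1, NR4A1) are themselves transcription factors that act on a later wave of genes. Others shut the response down: the DUSP phosphatases inactivate MAP kinases, ZFP36L1 speeds the decay of mRNA, and SOCS3 blocks cytokine receptor signalling. In brain, the same genes are induced by activity in neurons and by handling in microglia.

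Total counts were between 11260410 and 29771983 per sample. Tyrobp was at 198 to 442 CPM (counts relative to library size, scaled with TMM factors) in WT and 216 to 388 in Q175, against 17.1 to 22.3 in Tyrobp-KO and 9.59 to 15.2 in Q175;Tyrobp-KO, which fits the Tyrobp part of every label. The Q175 part of the labels was not checked. All 10 microglial markers had counts in every sample, with a summed level from 11410 to 22740 CPM. All 10 astrocyte, 10 neuronal, 10 oligodendrocyte and 10 medium spiny neuron (MSN) markers also had counts in every sample. The summed MSN level was 122 to 846 CPM, and the summed astrocyte level, 559 to 5723 CPM, had medians of 648 CPM in WT, 1386 in Tyrobp-KO, 1591 in Q175 and 2601 in Q175;Tyrobp-KO. In bulk samples of enriched cells, fewer cells of a type and less RNA per cell cannot be told apart.

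The members spanned a wide range of levels, and Fos itself was low. Of the 39 members, 37 reached 1 CPM in at least 1 sample and 29 did so in every sample. Per kilobase of exon, the highest mean levels over the 18 samples were 219 CPM per kb for Rhob, a small GTPase, 74.1 for Dusp6, a phosphatase that inactivates ERK, and 53.1 for Sgk1, a kinase downstream of growth factor and glucocorticoid signals. Mcl1, which protects cells from apoptosis, followed at 45.6 and Zfp36l1 at 35.3. Junb was at 27.1 and Jun at 15.2. By contrast Fos was at 0.857, Fosb at 0.346 and Maff, a small MAF factor that pairs with other bZIP proteins, at 0.285 CPM per kb. From the highest to the lowest of the 37, the mean level fell 769-fold. Of the 38 neighbouring pairs in the order, 30 had a mean log2 difference smaller than its SD over the samples, and 3 kept their order in every sample. In CPM, Rhob lay between 255 and 831 over the 18 samples, Dusp6 between 159 and 332 and Dusp2, a phosphatase of activated immune cells, between 0.0587 and 1.43. Rhob was above Dusp6 in 18 of 18 samples, whereas Sgk1 was above Mcl1 in 10 of 18.

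**Figure D1:**
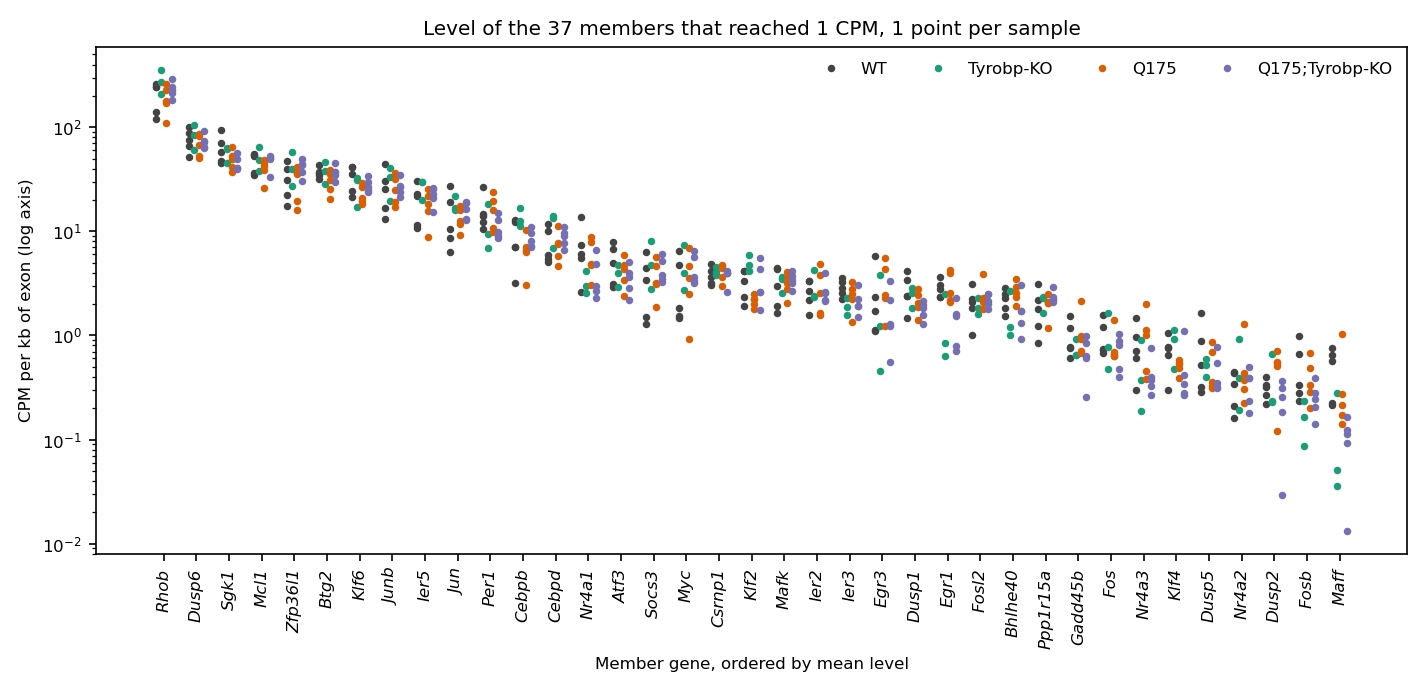
Level of each of the 37 members that reached 1 CPM, in CPM per kb of exon on a log axis, with genes ordered by their mean over 18 samples and 1 point per sample coloured by group. Rhob stands highest at a mean of 219, Fos is at 0.857, and the points of the 4 groups overlap for most genes.

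Egr2 and Jund did not reach 1 CPM. Egr2, a zinc finger factor of the EGR family, had 0 to 7 counts, with 0 in 10 of 18 samples. Jund, the JUN family member usually present without stimulation, had 0 to 3 counts, with 0 in 14 samples. By counting error alone, a count of 0 allows up to 3 counts. Jund is a gene without introns, and 55.1% of its length is covered by Gm11175, a gene annotated on the other strand, which itself had 0 to 11 counts. Libraries kept no strand, so reads in such an overlap cannot be told apart, and the level of Jund was not readable here. Exons of 12 members overlapped a gene on the other strand, Jun, Junb, Cebpb and Dusp1 among them.

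Fos was at 1.60, 1.76, 2.81, 3.70 and 1.70 CPM in WT, 1.82, 1.12 and 3.84 in Tyrobp-KO, 1.55, 3.31, 1.49, 1.49 and 1.62 in Q175 and 2.06, 1.92, 2.45, 1.11 and 0.944 in Q175;Tyrobp-KO. All groups overlapped. Its partner Jun was at 20.02, 33.4, 27.4, 87.0 and 60.6 CPM in WT, 69.4, 53.9 and 51.0 in Tyrobp-KO, 37.6, 29.3, 40.2, 50.5 and 55.8 in Q175 and 40.6, 41.6, 51.9, 61.5 and 59.5 in Q175;Tyrobp-KO, with the lowest and the highest sample both WT. Junb, which restrains JUN at many sites, was at 29.9 to 103 CPM in WT, 44.8 to 93.1 in Tyrobp-KO, 39.5 to 83.5 in Q175 and 49.0 to 80.4 in Q175;Tyrobp-KO. Atf3, a stress-induced bZIP repressor, lay between 4.73 and 17.1 CPM over all samples. Dusp1, a nuclear phosphatase of p38 and JNK, lay between 4.29 and 13.8.

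Promoters of 5 members are shown. Fos was taken as an immediate early gene of the AP-1 family. Fosb, Maff, Nr4a1 and Nr4a3 were taken for a lower level and an unadjusted p under 0.05 in at least 1 comparison without Tyrobp. None of them passed an FDR of 0.1 there. Egr1 also met that rule but had no matched promoter sequence. Each runs from 250 bases before to 50 bases after the start site in RefSeq (GRCm38.p6), 5′ to 3′ on the gene's own strand. Capitals mark the core of the cAMP response element (CRE, TGACG), bound by CREB, and the site of EGR factors (GCGNGGGCG), on either strand.
Fos (chr12:85473640-85473939, plus strand): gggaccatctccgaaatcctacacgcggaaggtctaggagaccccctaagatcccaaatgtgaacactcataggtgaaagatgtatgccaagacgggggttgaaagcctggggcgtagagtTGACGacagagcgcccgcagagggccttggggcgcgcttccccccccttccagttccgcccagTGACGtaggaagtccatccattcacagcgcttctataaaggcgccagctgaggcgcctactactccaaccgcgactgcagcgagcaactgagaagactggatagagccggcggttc
Fosb (chr7:19309996-19310295, minus strand): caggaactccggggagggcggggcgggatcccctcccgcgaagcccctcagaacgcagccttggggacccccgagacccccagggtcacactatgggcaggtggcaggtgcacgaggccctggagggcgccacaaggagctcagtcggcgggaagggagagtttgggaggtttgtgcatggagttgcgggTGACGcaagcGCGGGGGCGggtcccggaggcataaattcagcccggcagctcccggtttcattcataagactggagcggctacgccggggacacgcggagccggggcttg
Maff (chr15:79346371-79346670, plus strand): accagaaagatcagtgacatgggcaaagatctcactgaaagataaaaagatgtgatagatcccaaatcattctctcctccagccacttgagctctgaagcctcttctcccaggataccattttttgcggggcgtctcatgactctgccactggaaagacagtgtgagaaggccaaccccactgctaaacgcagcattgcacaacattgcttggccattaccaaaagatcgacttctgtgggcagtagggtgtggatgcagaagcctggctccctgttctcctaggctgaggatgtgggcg
Nr4a1 (chr15:101266596-101266895, plus strand): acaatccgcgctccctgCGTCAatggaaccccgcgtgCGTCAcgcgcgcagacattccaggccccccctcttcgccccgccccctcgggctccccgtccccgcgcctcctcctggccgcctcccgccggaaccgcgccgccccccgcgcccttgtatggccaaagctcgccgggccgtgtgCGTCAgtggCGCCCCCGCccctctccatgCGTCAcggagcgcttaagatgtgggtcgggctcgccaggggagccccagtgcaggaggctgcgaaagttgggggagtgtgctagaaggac
Nr4a3 (chr4:48045055-48045354, plus strand): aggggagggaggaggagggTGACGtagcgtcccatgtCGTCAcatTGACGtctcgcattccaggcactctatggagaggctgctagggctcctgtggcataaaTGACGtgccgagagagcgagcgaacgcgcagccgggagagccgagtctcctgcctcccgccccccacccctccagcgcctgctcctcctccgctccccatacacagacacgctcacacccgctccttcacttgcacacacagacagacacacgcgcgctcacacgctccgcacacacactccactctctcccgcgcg

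Promoters of 33 members matched by symbol, 1 for each gene, beside 27025 genes in all. The CRE core was in 19 of the 33 (57.6%) against 20.9% of all genes. Nr4a1 and Nr4a3 each held 4, Fos 2, Fosb 1, at position -60 from its start site, and Maff 0. The EGR site was in 11 of 33 (33.3%) against 5.56% of all, among them Fosb and Nr4a1 and not Fos, Maff or Nr4a3. The full CRE (TGACGTCA), which contains the core on both strands, was in 3 members, Btg2, Dusp1 and Ppp1r15a (9.09% against 1.86%), and the AP-1 site (TGANTCA) was in 1, Zfp36l1 (3.03% against 7.89%). The SRF motif known as the CArG box was in 1 member, Dusp5 (3.03% against 1.57%). Members' promoters had a median GC content of 64.7% against 52.7%, and its part in these shares was not tested. No match says only that the letters are not in this window.

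No member passed the test at a false discovery rate (FDR) of 0.1 in any comparison between 2 groups with edgeR. In Q175;Tyrobp-KO against Q175, which asks what loss of Tyrobp changes in the disease model, 0 of 37 members were called (0.0111% of all genes), 1 was higher at an unadjusted p under 0.05 (3.45% of all genes) and 3 were lower (4.56%). In Tyrobp-KO against WT, the same question without the Q175 allele, 0 of 37 were called (0.0222%), 0 were higher at an unadjusted p under 0.05 (3.66%) and 4 were lower (3.15%). DESeq2 called 0 members in both, where it called 0.227% of all genes in the former and 0.932% in the latter. Maff, 1 of the lower members in each comparison, was tested only through samples with Tyrobp, since no sample without Tyrobp reached 1 CPM, so its place in these counts is no support for a difference. Both comparisons share no sample with each other. The median log2 fold change of the members was -0.12 in Q175 mice (-0.05 for all genes) and 0.07 in mice without the Q175 allele (0.02 for all genes). Scaling to total counts in place of TMM moved the median of all genes in the Q175 pair to 0.08 and that of the members to 0.01, and the genes with an unadjusted p under 0.05 were then 1194 higher and 451 lower, against 623 and 823 with TMM. With that scaling 2 members were higher and 3 lower.

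Egr1, the zinc finger factor most used as a marker of recent stimulation, had the smallest edgeR p of the members in the Q175 pair. It was at 9.91, 19.2, 11.4, 17.6 and 9.35 CPM in Q175 and 10.3, 3.20, 7.23, 3.52 and 6.82 in Q175;Tyrobp-KO. Only replicate 5 of Q175;Tyrobp-KO lay within the Q175 range. The log2 fold change was -1.13 ± 0.35 (SE; edgeR unadjusted p = 0.00719, adjusted p = 0.533), and an exact permutation test on log2 CPM gave p = 0.0238, where 0.00794 is the smallest that 5 against 5 allows. In WT, Egr1 was at 10.5, 10.4, 13.8, 16.4 and 12.4 CPM against 2.84, 3.79 and 11.2 in Tyrobp-KO. Tyrobp-KO replicates 15 and 19 were below every WT sample, and replicate 20 was within the WT range. There the log2 fold change was -1.10 ± 0.43 (edgeR unadjusted p = 0.0275, adjusted p = 0.637; exact permutation p = 0.0536, smallest possible 0.0179). Without Tyrobp-KO replicate 20 it was -1.98 (adjusted p = 0.170), and without replicate 19 -0.85 (unadjusted p = 0.107).

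Maff was scarce, with 1 to 60 counts, and its values are given as a description. In the Q175 pair it passed the filter through 1 sample, Q175 replicate 17, and in the other pair through 3 WT samples. It was at 0.370, 0.552, 0.443, 0.713 and 2.70 CPM in Q175 and 0.243, 0.320, 0.0345, 0.293 and 0.429 in Q175;Tyrobp-KO. All but 1 of the 25 pairs of samples were lower without Tyrobp, and the highest value was that of Q175 replicate 17. This gave a log2 fold change of -1.88 ± 0.68 (edgeR unadjusted p = 0.0170, adjusted p = 0.533). Without replicate 17, and with edgeR's filterByExpr, Maff was not tested. In the other pair it was at 0.586, 1.49, 0.552, 1.67 and 1.97 CPM in WT and 0.726, 0.0936 and 0.132 in Tyrobp-KO, where Tyrobp-KO replicate 15 overlapped WT. Here the value was -1.97 ± 0.79 (edgeR unadjusted p = 0.0313, adjusted p = 0.667). An unadjusted p under 0.05 and a lower level in both comparisons were found for 76 of 17463 genes tested in both (0.435%) and for 2 members, Egr1 and Maff, the latter admitted by the filter as described.

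**Figure D2:**
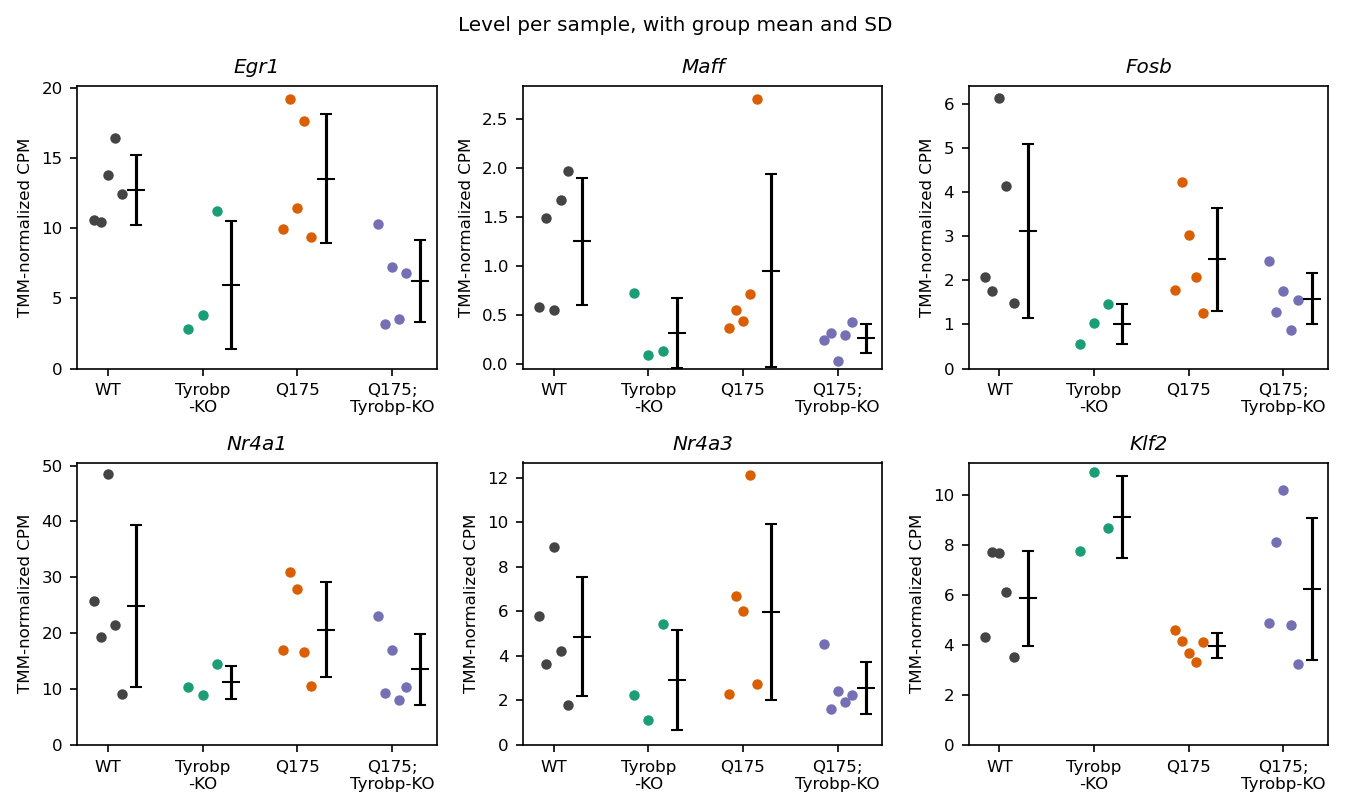
TMM-normalized CPM of Egr1, Maff, Fosb, Nr4a1, Nr4a3 and Klf2 per sample, with a point for each sample and the group mean and SD beside it (n = 5, 3, 5 and 5). Egr1 in Q175;Tyrobp-KO spans 3.20 to 10.3 against 9.35 to 19.2 in Q175, and Klf2 in Tyrobp-KO lies above every WT sample.

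Fosb, the activity-induced FOS relative, lies on chromosome 7 at 11.11 Mb from Tyrobp and is the only member within 15 Mb of it. The part of that position in its difference was not tested. It was at 2.08, 1.76, 6.12, 4.14 and 1.48 CPM in WT and 0.545, 1.03 and 1.46 in Tyrobp-KO. The highest Tyrobp-KO sample was just below the lowest WT sample. This gave a log2 fold change of -1.64 ± 0.59 (edgeR unadjusted p = 0.0193, adjusted p = 0.610; exact permutation p = 0.0536). In the Q175 pair the ranges overlapped, 1.26 to 4.23 CPM against 0.880 to 2.43, with a log2 fold change of -0.66 ± 0.39. Nr4a1, an orphan nuclear receptor induced by many stimuli in myeloid cells, was at 25.8, 19.3, 48.5, 21.4 and 9.20 CPM in WT and 10.3, 8.89 and 14.6 in Tyrobp-KO. WT replicate 8 lay among the Tyrobp-KO samples. Its log2 fold change was -1.16 ± 0.47 (edgeR unadjusted p = 0.0309, adjusted p = 0.665; exact permutation p = 0.125). Its relative Nr4a3 was at 2.29, 6.71, 6.00, 12.1 and 2.74 CPM in Q175 and 4.55, 1.60, 2.41, 1.94 and 2.23 in Q175;Tyrobp-KO. These groups overlapped. The log2 fold change was -1.24 ± 0.46 (edgeR unadjusted p = 0.0189, adjusted p = 0.533; exact permutation p = 0.0635).

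Levels of other cells' transcripts moved with these genes. The summed MSN level had a median of 313 CPM in WT, 199 in Tyrobp-KO, 546 in Q175 and 234 in Q175;Tyrobp-KO. Its ranges overlapped in all groups. The MSN list holds Drd1, Drd2, Ppp1r1b and Adora2a, which the paper reports as strongly lower in Q175 striatum. The microglial list holds C1qa, and the paper reports less C1q without Tyrobp in Q175 mice. The part of genotype in these marker levels was not tested. With the MSN marker level as a term, the log2 fold change of Nr4a3 in the Q175 pair was -0.53 (edgeR unadjusted p = 0.196), that of Egr1 -0.68 (unadjusted p = 0.0328; -0.72 with the microglial marker level) and that of Maff -2.32 (unadjusted p = 0.00261). In Tyrobp-KO against WT the term left Egr1 at -1.39 (unadjusted p = 0.00118), Fosb at -1.64 (unadjusted p = 0.00141) and Nr4a1 at -1.06 (unadjusted p = 0.00293). With the microglial marker level as a term, Nr4a1 was at -0.41 (unadjusted p = 0.352), Fosb at -1.07 (unadjusted p = 0.111), Egr1 at -0.81 (unadjusted p = 0.0385) and Maff at -2.98 (unadjusted p = 0.00422). No member had an adjusted p under 0.1 in these fits, and the lowest for Egr1 and for Maff was 0.103. Maff was tested only through samples with Tyrobp, so its values in these fits are no support for a difference.

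Klf2, a factor that keeps endothelial and myeloid cells quiescent, went the other way. It was at 4.58, 4.14, 3.66, 3.31 and 4.13 CPM in Q175 and 4.85, 8.10, 10.2, 4.81 and 3.22 in Q175;Tyrobp-KO. In 20 of 25 pairs of samples it was higher without Tyrobp. The log2 fold change was 0.63 ± 0.29 (edgeR unadjusted p = 0.0477, adjusted p = 0.533; exact permutation p = 0.119). Against 4.31, 7.70, 7.67, 6.10 and 3.51 CPM in WT, Tyrobp-KO was at 7.75, 10.9 and 8.67, above every WT sample by a narrow margin, with an exact permutation p of 0.0893. Endothelial markers, of a cell type that also uses Klf2, summed to 49.1 to 112 CPM in WT, 56.8 to 110 in Tyrobp-KO, 48.6 to 57.6 in Q175 and 39.6 to 59.6 in Q175;Tyrobp-KO, and their part in the difference was not tested.

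By role, the NR4A receptors had log2 fold changes of -1.24 to -0.63 in the Q175 pair, all 3 negative, and -1.16 to 0.65 in the other, where Nr4a2 was positive. Of the 8 AP-1 family members tested, 5 were negative in each comparison. The growth arrest, mRNA decay and stress regulators had 4 of 7 positive in the Q175 pair and 5 of 7 in the other. Of the phosphatases, 3 of 4 were negative in the Q175 pair, with the lowest value, -1.06, for Dusp2, which had at most 24 counts and reached 1 CPM there in Q175 samples only. In the other pair 2 of 4 were negative, and Dusp2 was at 0.28. Of the signalling and survival genes, Rhob, Mcl1 and Socs3 were positive and Sgk1 was negative in both comparisons. Sgk1 was at 222 to 458 CPM in WT, 222 to 306 in Tyrobp-KO, 181 to 314 in Q175 and 196 to 280 in Q175;Tyrobp-KO.

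The log2 fold changes of the 37 members without Tyrobp were correlated between the 2 backgrounds, at a Pearson r of 0.745 across genes, against 0.102 across the 17463 genes tested in both. Both comparisons use different samples, but members covary with each other and are not independent points. Maff, the lowest member in both, was tested only through samples with Tyrobp, and Dusp2 through 1 group in each. This r was not computed without them and is a description. The same correlation for the Q175 allele, with and without Tyrobp, was -0.05 over 36 members and -0.09 over all genes. An additive fit over the 18 samples, added after these values were seen, estimated the difference without Tyrobp with Q175 as a term. It called 0 of 37 members (0.161% of all genes), with 7 lower at an unadjusted p under 0.05 (7.41%) and 1 higher (1.40%). Egr1 had a log2 fold change of -1.14 ± 0.29 (edgeR unadjusted p = 0.000828, adjusted p = 0.230) and Maff of -1.94 ± 0.51 (unadjusted p = 0.00126, adjusted p = 0.255). An exact permutation test of Egr1 within each background, over 14112 arrangements, gave p = 0.000638. The test was run for all 37 members, and this p, the smallest, was not adjusted for them. Egr1 was picked from the same samples, so this p is no independent support. In the same fit Bhlhe40, a clock and stress repressor, and Per1, a clock gene, were at -0.56 and -0.54 (edgeR adjusted p = 0.509 and 0.533). Per1 was at 59.8 to 151 CPM in WT, 38.9 to 104 in Tyrobp-KO, 56.0 to 135 in Q175 and 48.7 to 84.5 in Q175;Tyrobp-KO. These ranges overlapped. DESeq2 called 2 members in it, Egr1 (adjusted p = 0.0314) and Maff (adjusted p = 0.0465), both lower, where it called 0.655% of all genes lower. Maff reached 1 CPM in 4 samples, all with Tyrobp, so its call is not independent of the filter. On simulated counts for this fit, drawn with dispersions from edgeR, DESeq2 made 64 false calls and edgeR 13. Without Tyrobp-KO replicate 20, edgeR called Egr1 (-1.40, adjusted p = 0.0408; 0.156% of all genes called lower). That library's Egr1, at 11.2 CPM, was the highest of the 3 Tyrobp-KO samples.

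**Figure D3:**
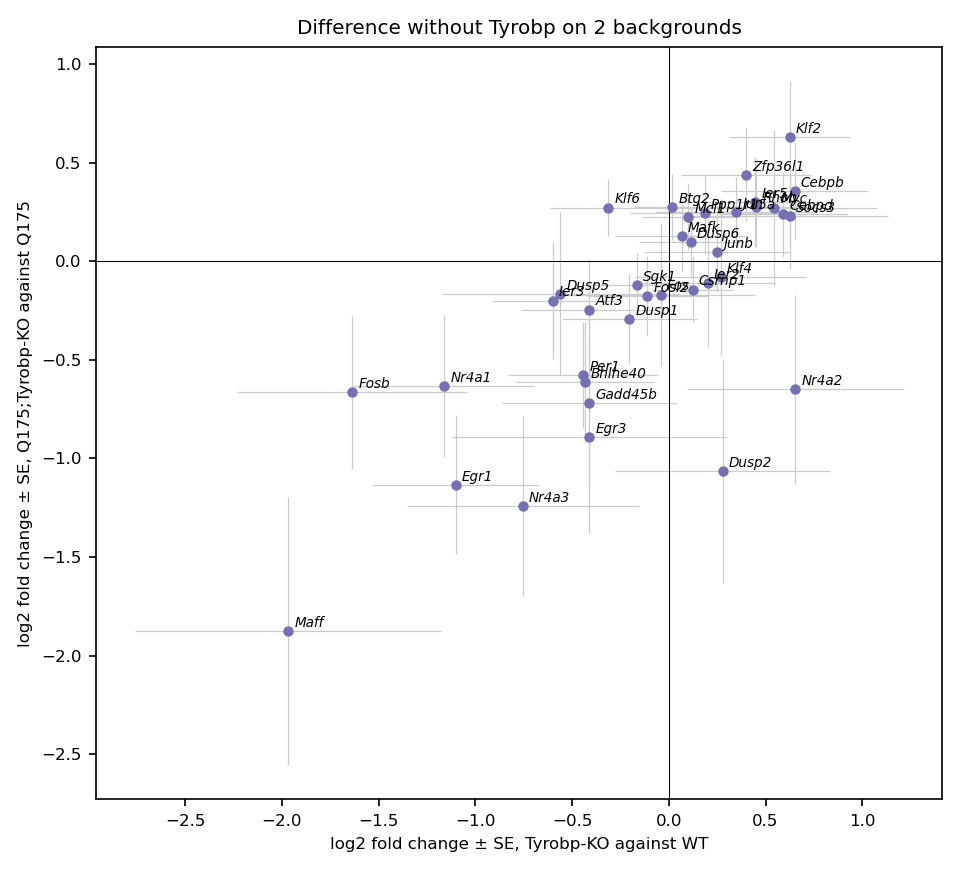
Log2 fold change with its SE for each of the 37 members in Tyrobp-KO against WT (horizontal) and Q175;Tyrobp-KO against Q175 (vertical). Maff, Fosb, Egr1, Nr4a1 and Nr4a3 lie low on both axes and Klf2 at the upper right. Maff was tested only through samples with Tyrobp.

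In Q175 against WT, which asks what the Q175 allele changes, 0 of 37 members were called (0% of all genes). At an unadjusted p under 0.05, 0 members were higher (5.47% of all genes) and 2 were lower (0.766%), Klf2 and Klf6. Klf6, a zinc finger factor induced by injury, was at 157, 183, 181, 94.2 and 108 CPM in WT and 116, 85.6, 92.4, 80.2 and 127 in Q175. The 2 lower WT samples, replicates 7 and 8, lay within the Q175 range. Its log2 fold change was -0.55 ± 0.23 (edgeR unadjusted p = 0.0303, adjusted p = 0.688; exact permutation p = 0.0794), and with sex as a term it was -0.35 (unadjusted p = 0.299). Klf2 was at -0.58 ± 0.27 (unadjusted p = 0.0480, adjusted p = 0.795). The Q175 group had 4 females of 5 and WT 1 of 5, so sex and the Q175 allele were largely confounded. Klf6 also had a Pearson r of -0.75 with the astrocyte marker level over the 18 samples (adjusted permutation p = 0.00647, Spearman's rho -0.72), -0.61 without the 2 samples farthest from the median. The summed astrocyte level was 559 to 1010 CPM in WT and 936 to 5723 in Q175. The relation was taken from 370 between members and marker lists, and no share over all genes was computed for astrocyte markers. Its part in the Klf6 difference was not tested.

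In Q175;Tyrobp-KO against Tyrobp-KO, the Q175 allele without Tyrobp, 36 members were tested and 0 called (0% of all genes). At an unadjusted p under 0.05, 1 was lower (8.24% of all genes) and 0 higher (4.99%). This was Cebpb, a bZIP factor of inflammatory gene expression in myeloid cells. It was at 18.7, 25.1 and 16.8 CPM in Tyrobp-KO and 10.6, 12.2, 16.6, 14.4 and 10.98 in Q175;Tyrobp-KO. The highest sample of the latter was just under the lowest of the former. The log2 fold change was -0.63 ± 0.19 (edgeR unadjusted p = 0.00850, adjusted p = 0.291; exact permutation p = 0.0357, smallest possible 0.0179). DESeq2 called Cebpb (adjusted p = 0.0959), where it called 2.31% of all genes lower. With the microglial marker level as a term edgeR called it too (adjusted p = 0.0784), and then called 8.39% of all genes lower. Without Tyrobp-KO replicate 19 the edgeR value was -0.46 (unadjusted p = 0.0551). Exons of Cebpb overlap Tmem189 on the other strand. In this comparison 27 of the 36 members had a negative value, with a median of -0.14 against -0.01 for all genes. Scaled to total counts, 23 were negative, and the genes with an unadjusted p under 0.05 were 822 higher and 570 lower, against 884 and 1460 with TMM.

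The interaction, which asks whether loss of Tyrobp acts differently with the Q175 allele, called 0 of 37 members (0% of all genes). Klf6 had an unadjusted p under 0.05 and a positive value, 0.66 ± 0.31 (edgeR unadjusted p = 0.0479, adjusted p = 0.716), as did 2.99% of all genes. With sex as a term it was 0.39 (unadjusted p = 0.259), and without Tyrobp-KO replicate 20 it was 0.42 (unadjusted p = 0.195). Scaling to total counts moved the median of all genes in the interaction from 0.04 to 0.15. For Egr1 the interaction was 0.02 ± 0.58 (edgeR unadjusted p = 0.971). Its estimates on both backgrounds were nearly equal, but with that SE a difference between them is not excluded.

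**Figure D4:**
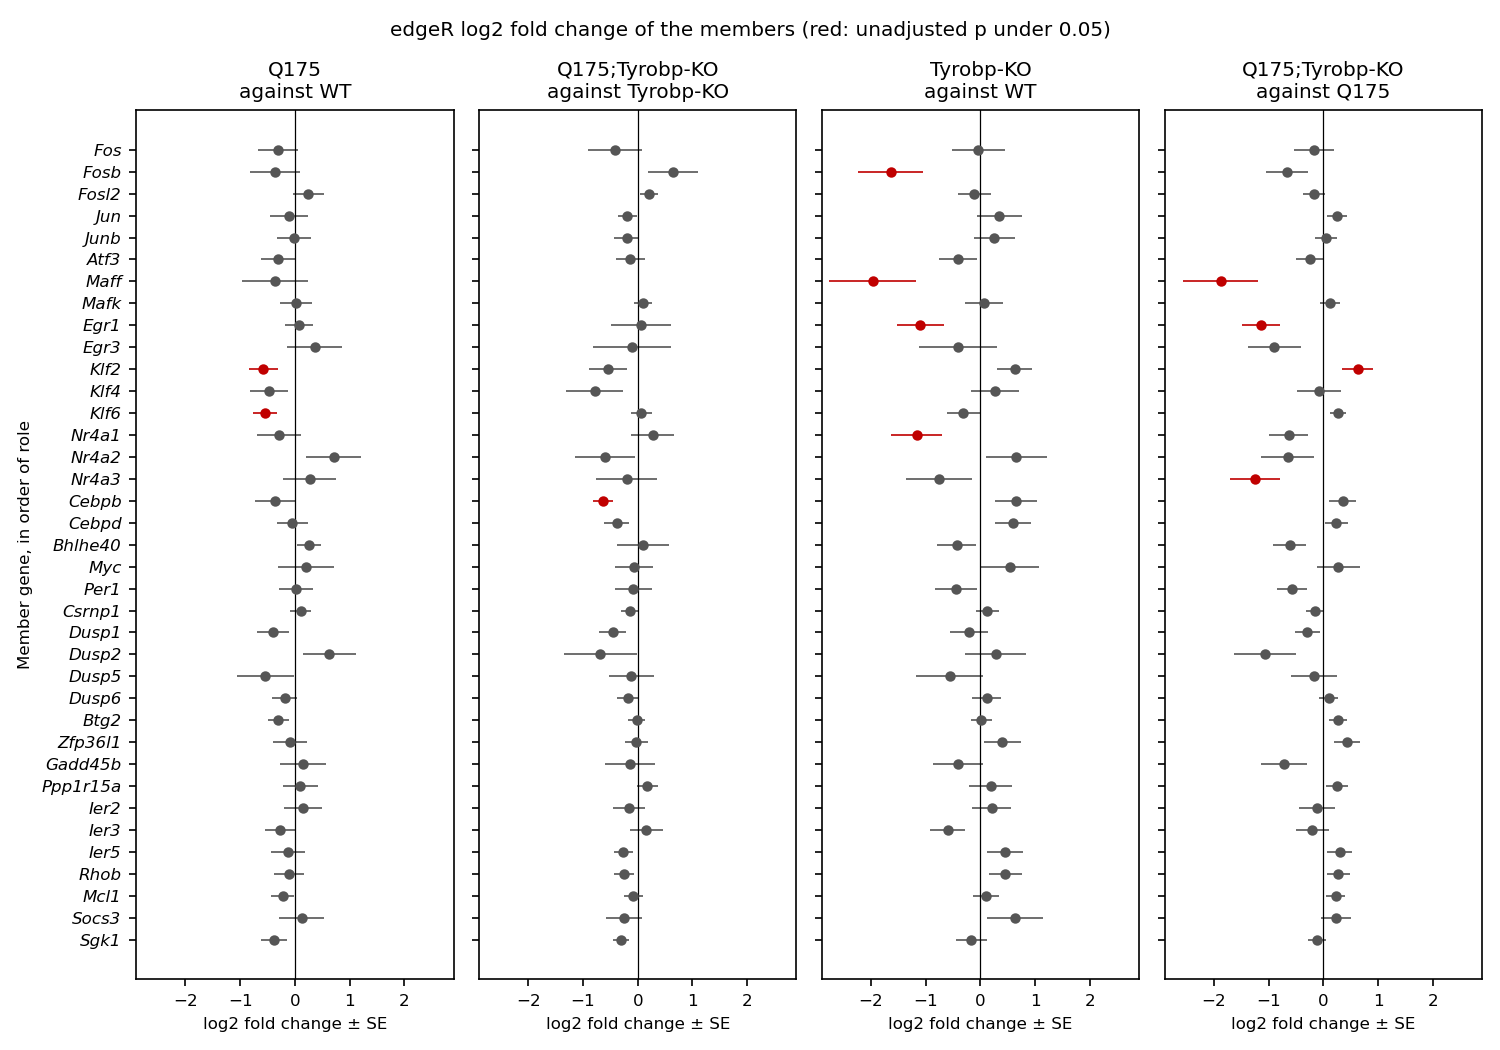
Log2 fold change and SE from edgeR for each member (rows, in order of role) in the 4 comparisons between 2 groups, with unadjusted p under 0.05 in red. Red points lie left of 0 for Maff and Egr1 in both comparisons without Tyrobp, and no point passed an FDR of 0.1. Maff was tested only through samples with Tyrobp.

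Across the 18 samples, correlation with Fos was compared with correlation with Egr1 and Jun. Fos was correlated at FDR 0.1 with no gene (0% of 18612), and its smallest adjusted p was 0.301. At an unadjusted permutation p under 0.05, 6 of 36 members were positively correlated with it (7.08% of all genes) and 0 negatively (8.39%). Single libraries moved these counts: they were 4 and 8 without WT replicate 7 (18.3% of all genes negative), 5 and 9 without the 2 samples farthest from the median of Fos (14.8% negative), and 3 and 0 without WT replicate 6 or without Q175 replicate 4. The nearest members were Dusp1 (r = 0.652, permutation p = 0.00335), Per1 (r = 0.625, p = 0.00574 by permutation) and Dusp5 (r = 0.594, p = 0.00867 by permutation), each with an adjusted p of 0.301. The 5 other genes with the largest r in size were Alkbh6 (-0.814), Adamts19 (0.793), Irak1bp1 (0.772), Thnsl2 (-0.767) and Slc25a47 (0.765). Fos had 19 to 71 counts per sample.

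Correlations with Egr1 and Jun were added after the levels were seen. With Egr1, 7 of 36 members were positively correlated at FDR 0.1 (13.4% of all genes) and 5 negatively (12.7%). The positive ones were Bhlhe40 (r = 0.806), Fosb (0.795), Egr3 (0.775), Nr4a3 (0.761), Nr4a1 (0.694), Per1 (0.681) and Gadd45b (0.650), with adjusted permutation p from 0.00863 to 0.0277. The negative ones were Btg2 (-0.646), Cebpd (-0.630), Zfp36l1, Mcl1 and Rhob. Without the 2 samples farthest from the median of Egr1, Q175;Tyrobp-KO replicate 11 and Tyrobp-KO replicate 15, 6 members passed on the positive side (5.98% of all genes) and 1, Cebpd, on the negative side (2.45%). Egr3 and Per1 were then not among the 6, and Fos was (r = 0.630).

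With Jun, 15 of 36 members were positively correlated (16.4% of all genes) and 2 negatively (8.20%). The highest r were those of Socs3 (0.907), Myc (0.886), Ier5 (0.860), Ppp1r15a (0.854), Junb (0.845), Mafk (0.814) and Rhob (0.750), and the negative ones were Nr4a1 (-0.646) and Per1 (-0.593). Jun's lowest samples were WT replicates 1 and 6. Without them, 7 members passed on the positive side (3.70% of all genes) and 0 on the negative side (1.69%), with r at 0.861 for Socs3 and 0.879 for Myc. Dusp6 was among the 7 (r = 0.800) and was not among the 15. Fos had an r of -0.08 with Jun. Among Egr1, Egr3, Nr4a1, Nr4a3, Fosb and Per1 the 15 pairwise r ran from 0.636 to 0.882. Among Jun, Junb, Socs3, Myc, Ier5, Rhob, Mcl1 and Zfp36l1 the 28 ran from 0.596 to 0.921, and between both sets the 48 ran from -0.817 to -0.306. These sets were picked from the same values, and the ranges describe them.

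Members were also compared with the cell type markers. Of the 370 relations between 37 members and 10 marker lists, 65 passed an FDR of 0.1. The adjustment ran over these 370 only, and the share of all genes passing it was not computed. With the microglial marker level, 14 members were positively and 7 negatively correlated. Mcl1 had the highest r (0.923, adjusted permutation p = 0.000925; Spearman's rho 0.769, adjusted permutation p = 0.00696), 0.848 without the 2 samples farthest from the median and 0.937 with values centred on the group means. Rhob (0.873), Zfp36l1 (0.852), Ier5 (0.828) and Btg2 (0.813) followed. Nr4a3 (-0.823), Egr3 (-0.790), Nr4a1 (-0.768) and Egr1 (-0.768) were at the other end. An r above 0.6 was reached by 13 of 37 members and by 18.8% of all genes, and one below -0.6 by 7 members and by 12.3% of all genes.

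With the MSN marker level, 8 members were positively and 6 negatively correlated. Egr3, a zinc finger factor abundant in striatal neurons, had an r of 0.894 (adjusted permutation p = 0.000925; Spearman's rho 0.897, adjusted permutation p = 0.00123; 0.868 without the 2 farthest samples). It was at 7.56, 4.93, 25.5, 10.2 and 4.87 CPM in WT, 1.997, 5.43 and 16.9 in Tyrobp-KO, 10.7, 19.1, 10.03, 24.3 and 5.48 in Q175 and 14.6, 2.43, 5.41, 5.69 and 9.65 in Q175;Tyrobp-KO. All groups overlapped. Per1 had an r of 0.768, Nr4a3 of 0.758 and Nr4a1 of 0.722. Jun was at -0.40 and Fos at 0.38, neither past the FDR. An r above 0.6 was reached by 6 of 37 members and by 10.5% of all genes, and one below -0.6 by 2 members and by 12.6% of all genes. Bhlhe40 followed the markers of oligodendrocyte precursors (r = 0.859), Nr4a2 those of neurons (r = 0.847), and Myc ran against those of mural cells (r = -0.849), all with an adjusted permutation p of 0.00247 or below. These were picked from all relations by their values, and no share over all genes was computed for these marker lists. How much of each member's RNA came from microglia was not measured in these samples.

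**Figure D5:**
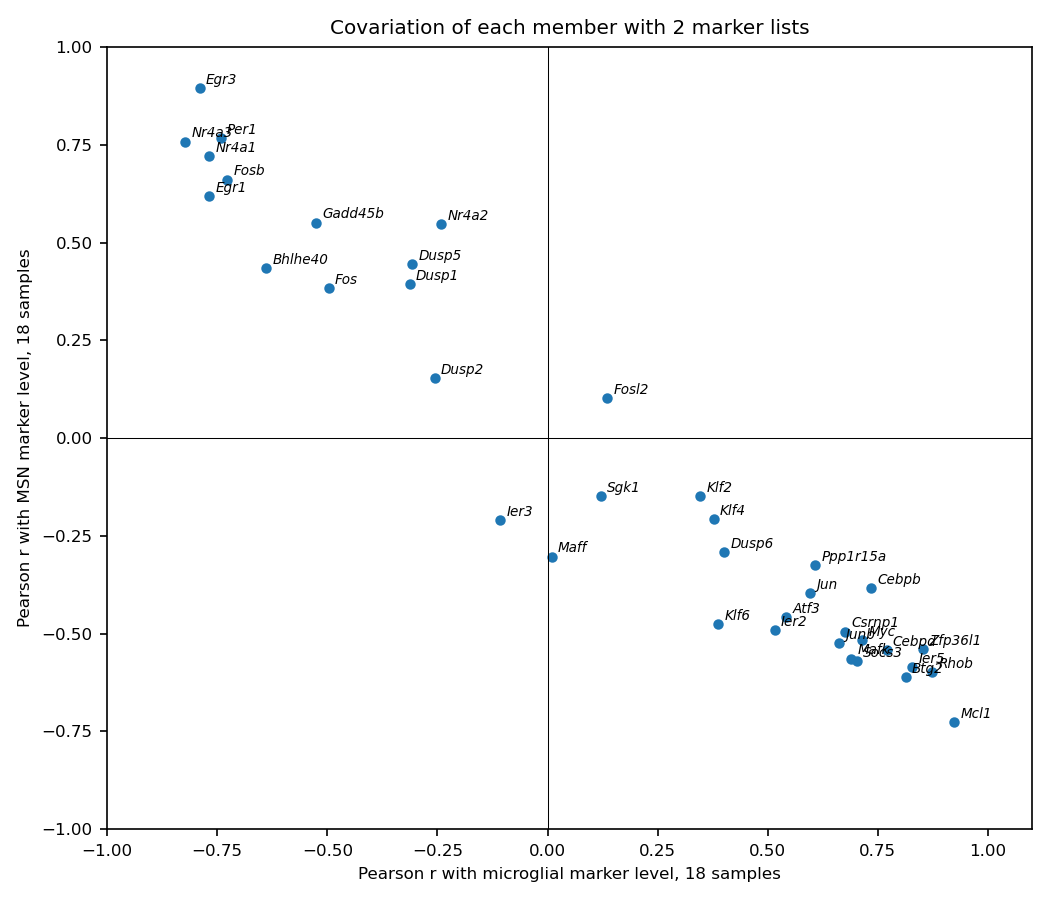
Pearson r of each of the 37 members with the microglial marker level (horizontal) and the MSN marker level (vertical) over 18 samples, 1 point per gene. Egr3, Nr4a3, Nr4a1, Fosb and Per1 lie at the upper left, Mcl1 and Rhob at the lower right, and Sgk1 and Maff near 0 on the horizontal axis.

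Genes around the response were read from 5 lists of 84 genes, of which 82 were tested: the RAS-ERK cascade, the JNK and p38 cascades, the SRF, ternary complex and CREB factors, ERK feedback and ETS targets, and other rapidly induced genes. edgeR called 0 of the 82 in each of the 4 comparisons and in the interaction. At an unadjusted p under 0.05, Q175;Tyrobp-KO against Q175 had 4 higher and 6 lower, Tyrobp-KO against WT 1 and 2, Q175 against WT 2 and 1, and Q175;Tyrobp-KO against Tyrobp-KO 5 and 5. Over all genes the shares higher and lower were 3.45% and 4.56%, 3.66% and 3.15%, 5.47% and 0.766%, and 4.99% and 8.24% in the same order. The list of other rapidly induced genes held the lowest values. Ccl3, a chemokine of activated microglia, was at 7.05 to 33.9 CPM in Q175 and 2.97 to 5.58 in Q175;Tyrobp-KO, with no overlap. Its log2 fold change was -1.95 ± 0.37 (edgeR unadjusted p = 0.000204, adjusted p = 0.335), and DESeq2 called it (adjusted p = 0.000407). In Tyrobp-KO it was at 4.49 to 9.38 CPM against 16.4 to 36.0 in WT, again with no overlap and with -1.64 ± 0.35 (unadjusted p = 0.000675, adjusted p = 0.565). Ccl4, a chemokine with the same receptor, was at -1.89 ± 0.43 and -1.52 ± 0.44 (adjusted p = 0.533 and 0.565), and DESeq2 called it in both. In each of these comparisons DESeq2 called 2 of the 82 genes, beside 0.227% and 0.932% of all genes. In the additive fit edgeR called both, Ccl3 at -1.85 ± 0.27 (adjusted p = 0.00265) and Ccl4 at -1.76 ± 0.32 (adjusted p = 0.0275). These were 2 of the 82 genes, beside 0.161% of all genes. The paper already names both among the genes it found changed in Q175;Tyrobp-KO against Q175 microglia. Their values here come from the same data and are no independent result.

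The kinases and the factors that bind these promoters showed smaller values. In Q175;Tyrobp-KO against Q175 the smallest p in each list were those of Sos2, which activates RAS (0.36 ± 0.14), Map3k1 of the JNK cascade (0.48 ± 0.20), the ternary complex factor Elk4 (0.46 ± 0.19) and Dusp16, a JNK phosphatase (0.49 ± 0.20), each with an adjusted p of 0.533. The ERK inhibitors Spry4 and Spred3 were at -0.81 ± 0.33 and -0.74 ± 0.34, and the synaptic scaffold gene Homer1 at -0.75 ± 0.28, with the same adjusted p. In Q175 against WT, Spry2 was at 0.60 ± 0.20 and the phosphatase gene Dusp8 at 1.09 ± 0.39 (adjusted p = 0.476 and 0.543). In Q175;Tyrobp-KO against Tyrobp-KO, Nfkbia, the inhibitor that NF-kB induces on itself, was at -0.52 ± 0.12 (edgeR unadjusted p = 0.00151, adjusted p = 0.291). DESeq2 called 3 of the 82 genes there, Nfkbia and Nras lower and Crebbp higher. It called 2.31% of all genes lower, beside others higher, so that count is not read as a result about the lists. Over the 82 genes the median log2 fold change was -0.04 in Q175 against WT, 0.03 in Q175;Tyrobp-KO against Q175 and -0.0031 in Tyrobp-KO against WT.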

How the data were processed

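Striatal cells were captured with beads against CD11b and sequenced from SMART-Seq v4 libraries that kept no strand. Each sample was 1 striatum by the methods and 2 by the labels. The authors aligned the reads with STAR and counted them with featureCounts, and the deposited values are counts per gene, whole numbers without normalization. The methods name GRCm38 and a UCSC gene model, the labels GRCh38, and all 55536 identifiers are in GENCODE M21 for mouse, from which symbols and exon lengths were taken. The table has 2 more columns with no labelled sample, which were not used.

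Counts were scaled with edgeR 4.0.16 (TMM) in R 4.3.3, and log2 CPM used a prior count of 2. In each comparison, genes at 1 CPM or more in at least 1 sample entered edgeR's quasi-likelihood test, fitted to the groups compared only, with Benjamini-Hochberg adjustment over all genes tested and an FDR of 0.1. SE is the absolute log2 fold change over the root of F. Exact permutation tests were 2-sided on log2 CPM. Correlations used 100000 permutations over samples. Marker levels were the mean of log2(CPM + 1), and summed levels are sums of CPM. DESeq2 1.42.0, other scalings and filters, 1 joint fit of the 4 groups, a stricter FDR of 0.05, robust fitting, sex or non-microglial markers as a term, and each sample left out were alternatives. The additive fit, the MSN and microglial terms and the correlations with Egr1 and Jun were added after seeing the data.

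Simulated counts held known changes only in genes with a mean level above that of Ier2 (4.23 CPM). Recovery of Ier2 and scarcer members, such as Nr4a3, Fos, Fosb and Maff, was not measured. In Q175;Tyrobp-KO against Q175 (17875 genes) edgeR recovered 60.0% of 2-fold and 94.0% of 4-fold changes. In Tyrobp-KO against WT (17729 genes) it recovered 32.0% and 94.0%. False calls numbered 17 with edgeR and 74 with DESeq2 in the former, and 13 and 80 in the latter. In Q175;Tyrobp-KO against Tyrobp-KO they were 8 and 92, and in the additive fit 13 and 64. Counting error alone sets a floor of 3 counts for a count of 0. Amplified reads are not independent molecules, so the true floor can be higher.

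The members and lists were chosen with earlier results of these data known. In full are given Fos, Fosb, Jun, Junb, Egr1, Nr4a1, Atf3, Dusp1, Klf2, Sgk1, members called by either tool or with an unadjusted p under 0.05 in a comparison or the interaction, the 3 highest and 3 lowest per kb, and members within 15 Mb of Tyrobp. Of the other lists, called genes and up to 3 each with the smallest p are named. Bhlhe40 and Per1 were added from the additive fit, and other genes named, Egr3 among them, were chosen after their values were seen.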

Additional observations from a re-analysis of the deposited data

Results flagged for a closer look

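Among the members described in full, 57 combinations of a gene and a group of 5 samples were examined for a sample far from the others, and 4 had one. Chance alone gives about 1 in 20 groups. Fos was at 3.31 CPM in Q175 replicate 4 against 1.49 to 1.62 in the other 4 samples. Maff was at 2.70 CPM in Q175 replicate 17 against 0.370 to 0.713. Nr4a3 was at 4.55 CPM in Q175;Tyrobp-KO replicate 5 against 1.60 to 2.41. Per1 was at 151 CPM in WT replicate 6 against 59.8 to 82.3.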

How the results depend on the processing

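No value of a member with an unadjusted p under 0.05 turned its direction under any alternative run, and in the interaction and the 3 comparisons other than Q175;Tyrobp-KO against Tyrobp-KO no alternative called a member. In Q175;Tyrobp-KO against Tyrobp-KO, DESeq2 and the microglial marker level as a term each called 1 member, Cebpb (beside 680 and 2924 genes in all), with adjusted p from 0.0784 to 0.733 over all alternatives. In the additive fit, DESeq2 called 2 members, the MSN marker level as a term 2, the non-microglial score 1 and the microglial marker level 1, and leaving out samples gave 0 to 1. Adjusted p ranged from 0.0314 to 0.552 for Egr1 and from 0.0262 to 0.621 for Maff there. Maff reached 1 CPM only in samples with Tyrobp, so its calls are not independent of the filter. Genes correlated with Fos stayed at 0 under every alternative, with each sample left out too. Members negatively correlated with Egr1 fell to 1 without the 2 farthest samples. Members correlated with Jun were then 7 positive and 0 negative, and 4 negative with Spearman's rho. Leaving out each sample was not run for Egr1 and Jun. The median log2 fold change of members moved by less than the SD between replicates (0.241) under every alternative. DESeq2 and edgeR differed in all-gene counts: DESeq2 called 234, 41, 168 and 680 genes in the order Q175 against WT, Q175;Tyrobp-KO against Q175, Tyrobp-KO against WT and Q175;Tyrobp-KO against Tyrobp-KO, where edgeR called 0, 2, 4 and 0. The cause was not tested. On simulated counts DESeq2 made 54 to 92 false calls in a comparison or fit, and edgeR 8 to 17. Those counts were drawn with dispersions from edgeR and no difference in cell composition. They do not decide which tool errs on the data. No paired analysis was possible because no replicate number is shared between the groups. Fos, Maff, Dusp2 and Gadd45b had few counts, which limits what fold could be seen.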

Other observations

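Npas4 and Arc, immediate early genes used most by neurons, were chosen for mention after their values were seen. Npas4 was at 4.22 to 26.0 CPM in WT, 1.88 to 9.40 in Tyrobp-KO, 2.88 to 23.5 in Q175 and 2.64 to 14.3 in Q175;Tyrobp-KO. All groups overlapped, and in the additive fit its log2 fold change without Tyrobp was -1.03 ± 0.46 (edgeR adjusted p = 0.530). Arc was at 19.6 to 68.8 CPM in WT, 10.9 to 46.8 in Tyrobp-KO, 23.2 to 99.99 in Q175 and 19.96 to 59.8 in Q175;Tyrobp-KO.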
